A study of Homo sapiens with 82 samples.

Results

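RNA of HT29 cells, a human colorectal cancer cell line, was sequenced after 48 h with 10 μM GW3965, a synthetic agonist of the liver X receptors (LXRs), and after 48 h with the carrier DMSO alone. The 8 libraries, 4 per group, were taken by their labels from 82 samples, and all 51838 genes of the count table were considered, of which 22470 had enough reads to be tested. Cells of both groups had been kept in charcoal/dextran-treated serum and medium free of phenol red before the drug or carrier was added, so neither group represents growth in full serum, and both come from 1 cell line. Libraries of the same line after 24 h with GW3965 or DMSO show where the 48 h response differed. So do libraries after 48 h with 10 μM T0901317, another LXR agonist. The fits also held libraries of T0901317 and of 10 μM rosiglitazone, an agonist of the nuclear receptor PPARG. Those of 48 h shared in the read filter, the estimate of the spread and the average level of each gene in the 48 h comparison. Treatments were carried out in quadruplicate per the study's methods, which do not say whether on separate days or passages, so the p-values measure the spread between these samples and may not cover that between experiments. In RNA from whole cultures, fewer cells that use a gene and less RNA of that gene per cell cannot be told apart.

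The LXRs, LXRA (NR1H3) and LXRB (NR1H2), are nuclear receptors that bind oxidized cholesterol derivatives and sit on DNA together with a retinoid X receptor, at direct repeats of a hexamer with a 4-base spacer. Their best known targets export cholesterol from the cell, remodel membrane phospholipids and switch on fatty acid synthesis through SREBF1. LXRs are also known to lower the transcription of other genes, among them inflammatory genes, without contacting DNA at such repeats. The comparison asks what the late response of colorectal cancer cells to LXR activation consists of.

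The DMSO libraries held between 32312041 and 38577979 counted reads and the GW3965 libraries between 36537256 and 50938082. Replicates of a group differed by more than sampling noise in every pair, so no library was counted as a copy of another, and the first principal component, with 81.7% of the variance, separated the groups. All 13 markers of a colonic epithelial line were expressed, with a summed level between 19200 and 20700 CPM, reads scaled to a common library size, with DMSO and between 17900 and 18500 CPM with GW3965. The sum rests mostly on the keratin genes KRT8 and KRT18, which had changes of -0.15 and -0.17 that did not pass the test, while 7 of the 13 members rose and 6 did not pass, with a median of 0.43. At an unadjusted p under 0.05, 9 were higher and 3 lower. Of 7 immune markers 4 were tested, and their list summed to between 9.59 and 13 CPM with DMSO and between 17.3 and 22.2 CPM with GW3965. The defining immune markers were at or near 0, with no read of CD3E and at most 5 reads of PTPRC in any of the 8 libraries, and the members that passed the test were CD14, with a log2 change of 1.94, and CD68, with 0.88. Of 7 fibroblast markers 2 were tested, and the list summed to between 5.86 and 8.09 CPM with DMSO and between 8.99 and 10.1 CPM with GW3965. Of 5 endothelial markers 2 were tested, with sums between 1.39 and 2.2 CPM and between 1.24 and 2.22 CPM. The part of these markers in the results was not tested.

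Changes are given as log2 of the level with GW3965 over that with DMSO, with a standard error, from the quasi-likelihood test of edgeR with Benjamini-Hochberg adjustment over all genes tested. The standard error is approximate. It was derived as the absolute log2 change divided by the square root of the F value of the test. GW3965 raised 727 genes (3.24% of those tested) and lowered 570 (2.54%) by 2-fold or more with an adjusted p under 0.01. Without a limit on the fold change, 3621 genes (16.1%) passed as higher and 3939 (17.5%) as lower, and the median change of all tested genes was 6.02e-05. All 4 GW3965 libraries lay above all 4 DMSO libraries for 711 of the 727 genes, and below them for 550 of the 570. Genes called from these same libraries seldom overlap, so these counts are a description and add no support to the calls. A change of at least 4-fold was seen for 117 of the higher and 89 of the lower genes. Protein-coding genes made up 59.9% of the genes tested, 70.0% of the higher and 69.1% of the lower genes by their RefSeq type.

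**Figure D1:**
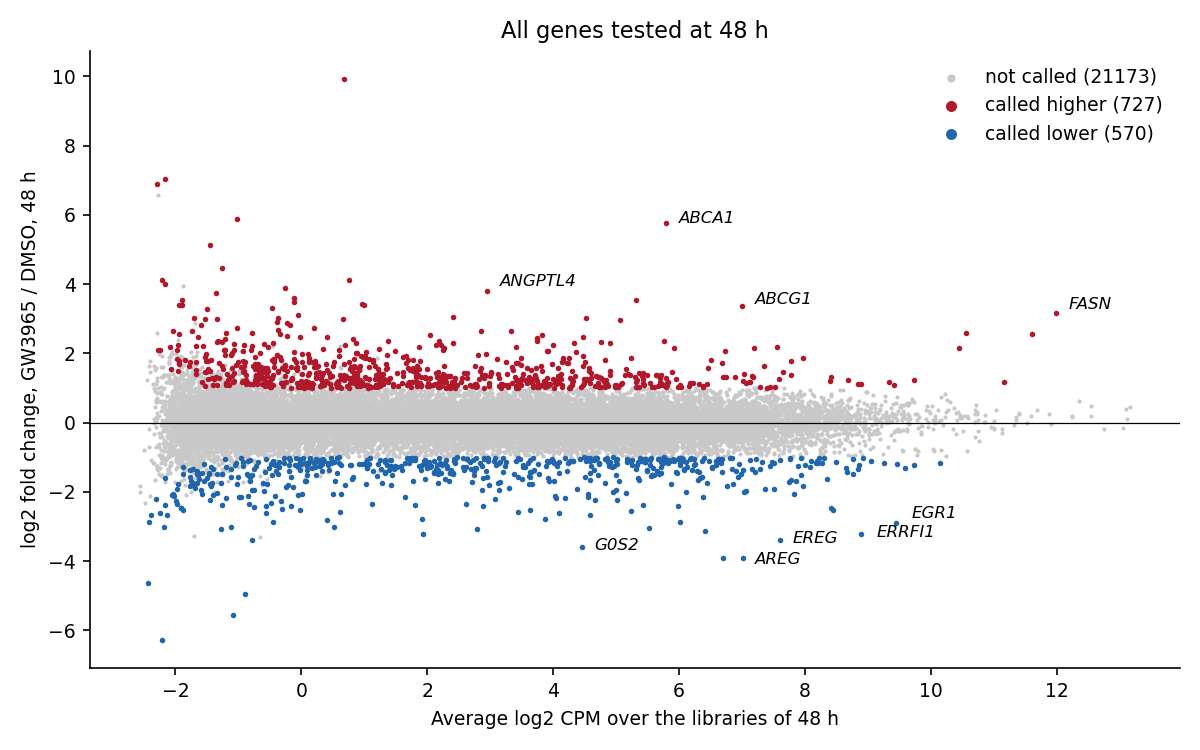
Each point is 1 of 22470 genes, with its average level (log2 CPM over the libraries of 48 h) on the x axis and its log2 change, GW3965 over DMSO at 48 h, on the y axis. The 727 genes called higher are red, the 570 called lower are blue, and ABCA1 at 5.77 stands above all other genes of like level. The 4 called genes beyond 6 in either direction are at 0 in every library of 1 of the groups, so that their fitted changes are no measure of size.

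The largest increases included those of genes for cholesterol export and fatty acid synthesis. ABCA1 (ENSG00000165029.11), the transporter that hands cellular cholesterol to apolipoproteins, stood at 3.21, 2.46, 1.85 and 2.14 CPM in the DMSO libraries and at 136, 122, 143 and 124 CPM in the GW3965 libraries. This is a change of 5.77 ± 0.13 (adjusted p = 7.98e-17), the largest among genes whose average log2 CPM was 1 or more, and the groups lay far apart. ABCG1 (ENSG00000160179.13), which moves sterols to lipoprotein particles, stood at 24.3, 21.4, 24.3 and 23.5 CPM with DMSO and at 231, 231, 266 and 247 CPM with GW3965, a change of 3.38 ± 0.13 (adjusted p = 4.33e-13). The 250 bases of RefSeq (GRCh38.p14) sequence before the start of ABCA1, chr9:104928156-104928405 on the minus strand, are shown because they hold a repeat of the kind LXR binds. Capitals mark, in this order, an E-box (CACGTG) and 2 copies of the hexamer NGGTNA with 4 bases between them, read on the reverse strand and without the outermost free base.
ABCA1: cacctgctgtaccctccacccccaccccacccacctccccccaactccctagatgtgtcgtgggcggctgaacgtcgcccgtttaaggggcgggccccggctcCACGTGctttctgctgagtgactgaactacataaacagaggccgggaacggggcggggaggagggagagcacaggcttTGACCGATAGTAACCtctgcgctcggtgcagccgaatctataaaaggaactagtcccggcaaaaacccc
The repeat starts at position -69 and the E-box at position -147 from the gene start. Such a repeat was present in 0.656% of the 27305 promoter windows of RefSeq, which span 250 bases before to 50 bases after the gene start. It was present in 0.479% of the 11908 windows of tested genes and in 0.483% of those of genes called higher (2 of 414). The E-box was present in 7.43% of all windows, in 9.65% of those of tested genes and in 7.97% of those of genes called higher. A sterol response element (TCACNCCAC) was present in 1.15% of all windows, 1.14% of those of tested genes and 1.45% of those of genes called higher. For a repeat of AGNTCA with 4 bases between, these shares were 0.11%, 0.0588% and 0.242%. ABCA1 held neither. The looser spelling of the repeat was searched after the ABCA1 sequence had been seen, and a match is a description of the letters only.

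Of 20 known LXR target genes, 14 were tested, and 11 rose, 1 fell and 2 did not pass, with a median change of 1.95 against 6.02e-05 over all genes, of which 16.1% were higher and 17.5% lower. SREBF1 (ENSG00000072310.10), the transcription factor that drives fatty acid synthesis genes, rose by 2.16 ± 0.10 (adjusted p = 6.95e-12), from 614, 587, 528 and 597 CPM with DMSO to 2575, 2572, 2776 and 2468 CPM with GW3965. NR1H3, which encodes LXRA and is a target of itself, rose by 1.65 ± 0.06 (adjusted p = 2.24e-13). PLTP, a phospholipid transfer protein, rose by 2.19, LPCAT3, which places polyunsaturated chains in phospholipids, by 2.18, and MYLIP, a ubiquitin ligase of sterol uptake, by 1.74. The member that fell was APOC1, with a change of -1.34 ± 0.40 (adjusted p = 0.00973) at a level under 1 CPM. Its call was lost with the scaling of DESeq2, without DMSO replicate 1, 2 or 4 and without GW3965 replicate 2, 3 or 4. APOE had a change of 0.64 (adjusted p = 0.143). The receptor genes moved apart. NR1H2, which encodes LXRB, fell by 0.25 ± 0.06 (adjusted p = 0.000991) and PPARG fell by 1.08 ± 0.08 (adjusted p = 1.78e-09), from 85.2, 76.2, 81.8 and 80.5 CPM to 37.6, 37.0, 38.7 and 40.0 CPM, without overlap. Of the 14 tested receptors and coregulators, 4 rose and 8 fell, among the former NR0B2, a corepressor without a DNA-binding domain, at 1.35, and PPARA at 0.58, and among the latter the coregulators NCOA3 at -0.67 and NRIP1 at -0.67.

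Genes of fatty acid and triglyceride synthesis rose together. Of 20 tested members 14 were higher and none was lower (edgeR), while 1 was lower at an unadjusted p under 0.05 and 0 with DESeq2. Of all genes tested, 16.1% were higher and 17.5% lower in edgeR. FASN (ENSG00000169710.5), the fatty acid synthase, stood at 964, 1013, 803 and 989.8 CPM in the DMSO libraries and at 8709, 9323, 7518 and 8316 CPM in the GW3965 libraries, a change of 3.17 ± 0.17 (adjusted p = 3.42e-11). SCD (ENSG00000099194.4), which makes monounsaturated fatty acids, rose by 2.57 ± 0.06 (adjusted p = 1.33e-16), from 926, 985, 863 and 895 CPM to 5168, 5543, 5427 and 5648 CPM. The groups of both genes were far from overlapping. ACSS2, which activates acetate, rose by 2.36 ± 0.09 (adjusted p = 5.18e-13). SCDP1, a pseudogene of SCD, rose by 2.66, and reads of the 2 genes may not have been told apart. AL139819.1 (ENSG00000256545.1), known here only by its clone name, rose by 2.58 ± 0.05 (adjusted p = 2.67e-17), from 441, 459, 421 and 425 CPM to 2472, 2647, 2645 and 2706 CPM. Its change was close to that of SCD, and its levels followed those of SCD from library to library. Reads of AL139819.1 and SCD may not have been told apart either, which was not tested.

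Of 26 genes of cholesterol synthesis and uptake, all tested, 17 rose, 2 fell and 7 did not pass, with a median of 0.65, beside 16.1% of all genes higher and 17.5% lower. LSS, which closes the sterol ring, rose by 1.79 ± 0.11 (adjusted p = 2.01e-10), from 110.5 ± 12 to 381 ± 26.2 CPM (mean ± SD, n = 4). INSIG1, which holds the sterol-sensing complex in the endoplasmic reticulum, rose by 1.71 ± 0.11 (adjusted p = 5.66e-10), from 46.3, 55.6, 45.8 and 51.3 CPM to 158, 179, 148 and 165 CPM. CYP51A1, which demethylates lanosterol, fell by 0.30 ± 0.06 (adjusted p = 0.000377).

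Fatty acid oxidation genes and known PPAR targets also rose: 11 of 18 tested members were higher, with a median of 0.73, and none was lower in edgeR, at an unadjusted p under 0.05 or in DESeq2. The shares over all genes tested were 16.1% higher and 17.5% lower in edgeR. ANGPTL4 (ENSG00000167772.6), a secreted inhibitor of lipoprotein lipase, rose from 0.326, 0.150, 0.296 and 0.228 CPM to 3.66, 3.17, 3.59 and 3.84 CPM, by 3.81 ± 0.35 (adjusted p = 3.91e-08). PDK4, a kinase that shuts the pyruvate dehydrogenase complex, rose by 2.29 ± 0.11 (adjusted p = 8.69e-12), from 4.30, 5.0, 4.39 and 4.25 CPM to 22.8, 19.1, 23.2 and 22.6 CPM. None of these groups overlapped. The fatty acid binding protein FABP1 rose by 2.54.

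Other genes among the 12 largest increases belonged to no single pathway. POU2F3 (ENSG00000137709.4), a transcription factor known from tuft cells, rose by 3.40 ± 0.21 (adjusted p = 1.99e-10), from 0.475, 0.299, 0.197 and 0.257 CPM to 3.33, 3.25, 3.25 and 3.12 CPM. POU3F1 (ENSG00000185668.5), a transcription factor of the same family, rose by 3.06 ± 0.14 (adjusted p = 3.92e-12). SLC38A4 (ENSG00000139209.10), an amino acid transporter, rose by 3.03 ± 0.12 (adjusted p = 5.23e-13), from 1.04, 1.35, 0.887 and 1.23 CPM to 8.51, 8.98, 9.48 and 9.61 CPM. CYP4F12 (ENSG00000186204.8) and CYP4F3 (ENSG00000186529.7), cytochrome P450 enzymes that hydroxylate fatty acids, rose by 2.96 and 2.63. They are similar genes of 1 family, and how reads that fit both were counted is not stated.

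**Figure D2:**
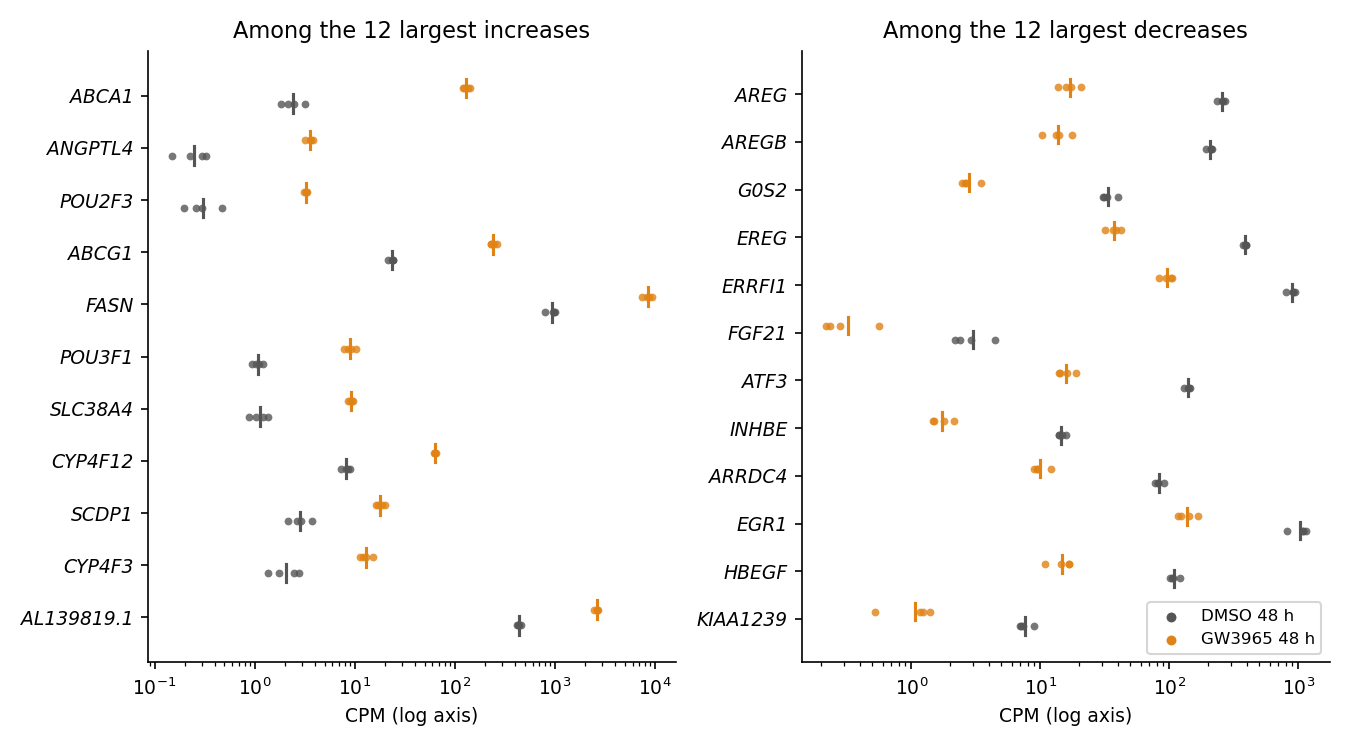
CPM on a log axis in the 4 DMSO (grey) and 4 GW3965 (orange) libraries of 48 h for genes among the 12 largest increases (left) and the 12 largest decreases (right), with a bar at each group's mean. The groups of every gene shown stand apart, as the rule for choosing them requires.

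The largest decreases included those of ligands of the EGF receptor and genes that growth factor and stress signals induce. AREG (ENSG00000109321.6), which encodes amphiregulin, stood at 258, 236, 269 and 261 CPM in the DMSO libraries and at 17.4, 13.7, 20.5 and 15.9 CPM in the GW3965 libraries, a change of -3.92 ± 0.13 (adjusted p = 2.35e-14). AREGB, annotated as a near-identical copy, changed by -3.90, and reads of the copies may not have been told apart. EREG (ENSG00000124882.3), which encodes epiregulin, fell from 396, 372, 387 and 395 CPM to 42.3, 31.5, 38.6 and 36.6 CPM, with a change of -3.38 ± 0.12 (adjusted p = 4.68e-14). HBEGF (ENSG00000113070.6), a further EGF receptor ligand, fell from 104, 102, 120.3 and 108 CPM to 16.7, 10.8, 16.7 and 14.4 CPM, with a change of -2.88 ± 0.13 (adjusted p = 3.87e-12). In each of these genes every GW3965 library lay below every DMSO library. Of 11 tested ligands and receptors of the family 6 fell and 1, the receptor gene ERBB2, rose, by 0.82 ± 0.10 (adjusted p = 9.75e-07), while EGFR fell by 0.41 ± 0.10 (adjusted p = 0.00271). AREG and AREGB, which may hold the same reads, both count in these numbers and in the list's median. Of all genes tested, 16.1% were higher and 17.5% lower. ERRFI1 (ENSG00000116285.8), a feedback inhibitor of the EGF receptor, fell from 903, 809.7, 941 and 906 CPM to 104, 82.6, 103 and 94.0 CPM, with a change of -3.21 ± 0.10 (adjusted p = 1.05e-14).

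The 250 bases before the start of AREG, chr4:74444886-74445135 on the plus strand (RefSeq, GRCh38.p14), are shown for the largest decrease, with a cyclic AMP response element (TGACGTCA) in capitals, which starts at position -65.
AREG: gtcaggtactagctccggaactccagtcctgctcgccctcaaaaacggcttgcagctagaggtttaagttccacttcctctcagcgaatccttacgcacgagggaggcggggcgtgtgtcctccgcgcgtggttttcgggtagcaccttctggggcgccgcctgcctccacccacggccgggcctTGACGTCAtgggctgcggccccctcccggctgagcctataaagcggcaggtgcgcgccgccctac
This element was present in 1.98% of all RefSeq promoter windows, in 3.02% of the 11908 windows of tested genes, in 3.79% of the 343 windows of genes called lower and in 0.966% of the 414 windows of genes called higher.

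Feedback genes of the MAPK pathway, which the EGF receptor feeds, were mostly lower, with 14 of 18 tested members lower, a median of -0.91 and none higher in edgeR, at an unadjusted p under 0.05 or in DESeq2. This count and those of the next lists stand beside 16.1% of all genes higher and 17.5% lower. DUSP1, a phosphatase of MAPKs, fell from 31.3, 24.9, 29.8 and 30.3 CPM to 6.30, 5.52, 7.30 and 5.49 CPM, with a change of -2.24 ± 0.14 (adjusted p = 4.41e-10). DUSP5, a phosphatase of ERK, fell by 2.12 ± 0.12 (adjusted p = 9.55e-11), and PHLDA1 fell by 1.69 ± 0.10 (adjusted p = 7.98e-11). Of 10 tested AP1 subunits, which form the dimeric transcription factor that growth and stress signals activate, 9 fell and 1, BATF2, rose, with a median of -1.40. ATF3 (ENSG00000162772.12) fell from 142, 131, 144 and 139 CPM to 16, 13.9, 18.8 and 14.4 CPM, with a change of -3.14 ± 0.13 (adjusted p = 4.66e-13). FOSL1 fell by 2.40 ± 0.09 (adjusted p = 8.22e-14) and JUND fell by 0.70 ± 0.10 (adjusted p = 1.23e-05), the latter from 256, 242, 268 and 284 CPM to 174, 152, 159 and 162 CPM. Of 19 tested immediate early genes outside AP1, 16 fell, with a median of -1.10. None was higher in edgeR or in DESeq2, and 1 was at an unadjusted p under 0.05. EGR1 (ENSG00000120738.6), a zinc finger transcription factor, fell from 1084, 1144, 824 and 1091 CPM to 143, 117, 168 and 124 CPM, with a change of -2.90 ± 0.19 (adjusted p = 4.79e-10). PTGS2, the inducible cyclooxygenase, fell by 2.67 ± 0.14 (adjusted p = 2.67e-11). The AP1 site (TGANTCA) was present in 9.04% of the promoter windows of genes called lower, in 5.31% of those of genes called higher in 5.1% of those of all tested genes and in 7.76% of all 27305 windows of RefSeq.

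The remaining genes among the 12 largest decreases included G0S2 (ENSG00000123689.5), an inhibitor of the triglyceride lipase of lipid droplets, which fell from 31.4, 30.7, 40.1 and 32.7 CPM to 2.59, 2.65, 3.46 and 2.49 CPM, with a change of -3.59 ± 0.19 (adjusted p = 2.75e-11). ARRDC4 (ENSG00000140450.7), an arrestin family protein, fell from 81.6, 78.0, 91.6 and 81.9 CPM to 9.52, 8.93, 12.2 and 9.41 CPM, with a change of -3.05 ± 0.12 (adjusted p = 2.71e-13). INHBE (ENSG00000139269.2), an inhibin beta subunit, fell by 3.08 ± 0.21 (adjusted p = 7.67e-10), and KIAA1239 (ENSG00000174145.7), now named NWD2, fell by 2.78 ± 0.21 (adjusted p = 2.85e-09).

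The integrated stress response, through which shortage of amino acids or stress of the endoplasmic reticulum raises ATF4 and its targets, was lower almost throughout its list. Of 19 tested members 18 fell and 1 did not pass, 14 fell at least 2-fold, and the median was -1.19. Of all genes, 17.5% were lower, and 2.54% at least 2-fold. None of the list was higher in edgeR, at an unadjusted p under 0.05 or in DESeq2. FGF21 (ENSG00000105550.3), a secreted metabolic hormone, fell from 2.20, 2.40, 4.49 and 2.91 CPM to 0.559, 0.218, 0.281 and 0.235 CPM, with a change of -3.21 ± 0.37 (adjusted p = 7.32e-07). GDF15, a stress-induced cytokine, fell from 647, 592, 675 and 672 CPM to 126, 88.1, 128 and 104 CPM, with a change of -2.53 ± 0.12 (adjusted p = 6.95e-12). PPP1R15A, which reverses the translational block of this response, fell by 1.91 ± 0.11 (adjusted p = 1.15e-10), and DDIT3, which encodes the factor CHOP, fell by 1.6 ± 0.14 (adjusted p = 3.12e-08). ASNS, which makes asparagine, fell by 1.02 ± 0.14 (adjusted p = 1.01e-05), and CHAC1, which degrades glutathione, fell by 1.37 ± 0.10 (adjusted p = 2.06e-09). ATF4 itself fell by 0.30 ± 0.08 (adjusted p = 0.00621). PHGDH, the first enzyme of serine synthesis, had a change of -0.03 (adjusted p = 0.802) and did not pass.

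Short stretches of RefSeq promoter (GRCh38.p14) are shown for the 3 members of this list with a C/EBP-ATF response element (TGATGNAA on either strand, in capitals) before the gene start. They lie at chr7:97872458-97872487 on the minus strand, chr15:40953251-40953280 on the plus strand and chr19:48755459-48755488 on the plus strand, and the elements start at positions -68, -209 and -54.
ASNS: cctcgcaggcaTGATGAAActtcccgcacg
CHAC1: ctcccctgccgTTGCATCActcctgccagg
FGF21: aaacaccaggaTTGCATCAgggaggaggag
With SLC3A2, where the match lies after the gene start, 4 of 16 members with a window held the element. It was present in 3.67% of all windows, in 1.84% of those of tested genes, in 6.41% of those of genes called lower (22 of 343) and in 0.966% of those of genes called higher (4 of 414). No tested gene had overlapping matches of this element, the AP1 site and the cyclic AMP response element, and windows were found for 53.1% of the tested genes. These shares describe letters in a window and carry no test.

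Growth factor and cytokine genes moved less evenly, beside 16.1% of all genes higher and 17.5% lower. Of 16 tested NF-kappaB targets and chemokines, 2 rose, 10 fell and 4 did not pass, with a median of -0.84. IL8, a neutrophil chemokine, fell by 2.38 ± 0.19 (adjusted p = 9.33e-09), and CXCL2 fell by 1.68 ± 0.33 (adjusted p = 0.000342), while NFKBIA, which encodes the inhibitor of NF-kappaB, rose by 0.60 ± 0.08 (adjusted p = 2.66e-06). The other member that rose, the adhesion molecule gene ICAM1, did not pass without DMSO replicate 3. Of 16 tested BMP and TGF-beta genes 2 rose and 8 fell, with a median of -0.53. ID1, a target of BMP signals, fell by 2.00 ± 0.09 (adjusted p = 1.61e-12), TGFB2 fell by 1.71 ± 0.12 (adjusted p = 2.06e-09), and the ligand BMP4 rose by 1.19 ± 0.10 (adjusted p = 1.4e-08). Of 14 tested Wnt targets and antagonists 6 rose and 3 fell, with a median of 0.52. The Wnt targets ASCL2, NKD2 and SP5 rose by 1.47, 1.08 and 1.05. The other Wnt targets that passed as lower were CCND1, at -0.49 ± 0.07 (adjusted p = 7.33e-06), and ZNRF3, at -0.31 ± 0.08 (adjusted p = 0.00405). The secreted antagonist DKK1 fell by 2.61 ± 0.10 (adjusted p = 3.53e-13), from 29.9, 31.0, 26.6 and 30.5 CPM to 5.70, 4.91, 4.63 and 4.18 CPM. Of 17 interferon-stimulated genes 2 rose and 7 fell, with a median of -0.24, among them OAS1, an antiviral synthetase, at 1.30 and IFIT1, which binds viral RNA, at -2.05.

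Genes of the cell cycle changed in both directions. Of 28 tested genes of DNA replication 6 rose, 2 fell and 20 did not pass, with a median of 0.23, beside 16.1% of all genes higher and 17.5% lower. The origin licensing factor CDT1 rose by 0.74 ± 0.14 (adjusted p = 0.000164) and CDC6, which loads the same helicase, fell by 0.88 ± 0.08 (adjusted p = 3.83e-08). With only the 8 libraries of these groups in the fit, 13 rose and 5 fell, beside 4390 and 4429 of all genes. Of 23 tested genes of mitosis 1, CDC20, rose, 10 fell and 12 did not pass, with a median of -0.22, among them the kinetochore gene NDC80 at -0.86 and the spindle gene TPX2 at -0.75. Of 14 tested CDK inhibitors and growth arrest genes 4 rose, 1 of them at least 2-fold, and 8 fell, 4 of them at least 2-fold. Of all genes, 3.24% were higher and 2.54% lower at least 2-fold. CDKN2B, which encodes p15, fell by 2.06 ± 0.13 (adjusted p = 5.22e-10), GADD45A fell by 1.99 ± 0.10 (adjusted p = 7.94e-12), and CDKN1C, which encodes p57, rose by 1.2 ± 0.16 (adjusted p = 4.23e-06). MYC fell by 1.11 ± 0.10 (adjusted p = 2.13e-08), from 347, 313, 315 and 337 CPM to 145, 156, 149 and 158 CPM. Of the 21 tested genes of MYC and ribosome biogenesis, MYC among them, 15 fell and 1 rose, with a median of -0.52. The gene that rose was BOP1, at 0.37 ± 0.09 (adjusted p = 0.00253), and it did not pass without DMSO replicate 2 or 3. NOP58, a nucleolar protein, fell by 1.07 ± 0.09 (adjusted p = 2.03e-08).

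The counts of the metabolic lists also stand beside 16.1% of all genes higher and 17.5% lower. Among these lists, 14 of 24 tested genes of glycolysis and hypoxia rose and 2 fell, with a median of 0.24. ENO2, an enolase, rose by 1.2 ± 0.10 (adjusted p = 1.5e-08), while VEGFA, the vascular growth factor, fell by 0.94 ± 0.09 (adjusted p = 6.26e-08), and HK2, a hexokinase, fell by 0.80 ± 0.08 (adjusted p = 1.55e-07). Of 30 tested genes of the citrate cycle and oxidative phosphorylation 7 rose and 4 fell, with a median of 0.06. SDHA, a subunit of succinate dehydrogenase, rose by 0.77 ± 0.08 (adjusted p = 2.03e-07). Of 19 tested antioxidant and glutathione genes 7 rose and 5 fell, with a median of 0.08. PGD, which reduces NADP in the pentose phosphate pathway, rose by 0.81, and TXNRD1, a thioredoxin reductase, fell by 1.04 ± 0.15 (adjusted p = 9.8e-06).

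Genes of differentiation, cell death and transcription elongation gave mixed counts, beside 16.1% of all genes higher and 17.5% lower. Of 12 tested enterocyte genes 4 rose and 1 fell, with a median of 0.05, and CEACAM6, an adhesion molecule, rose by 1.09 ± 0.11 (adjusted p = 2.69e-07). The number that rose dropped to 2 without DMSO replicate 1, without DMSO replicate 3 or without GW3965 replicate 4. Of 20 tested goblet, endocrine and tuft cell genes 6 rose and 2 fell, the latter HES1, a target of Notch, at -1.35 and TFF1 at -2.10. Of 16 tested apoptosis genes 1 rose and 7 fell, with a median of -0.23. PMAIP1, which encodes NOXA, fell by 1.95 ± 0.16 (adjusted p = 7.33e-09), and the death receptor gene TNFRSF10B fell by 1.28 ± 0.06 (adjusted p = 9.59e-12). The gene that rose was BAX, at 0.22 ± 0.07 (adjusted p = 0.00978), which did not pass when any single library of the 2 groups was left out. Of 12 tested factors of polymerase pausing and elongation 1 rose and 5 fell. CCNT1, the cyclin of the elongation kinase, fell by 0.85 ± 0.06 (adjusted p = 1.61e-09), and COBRA1, a subunit of the pausing factor NELF, rose by 0.37 ± 0.06 (adjusted p = 5.01e-05).

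**Figure D3:**
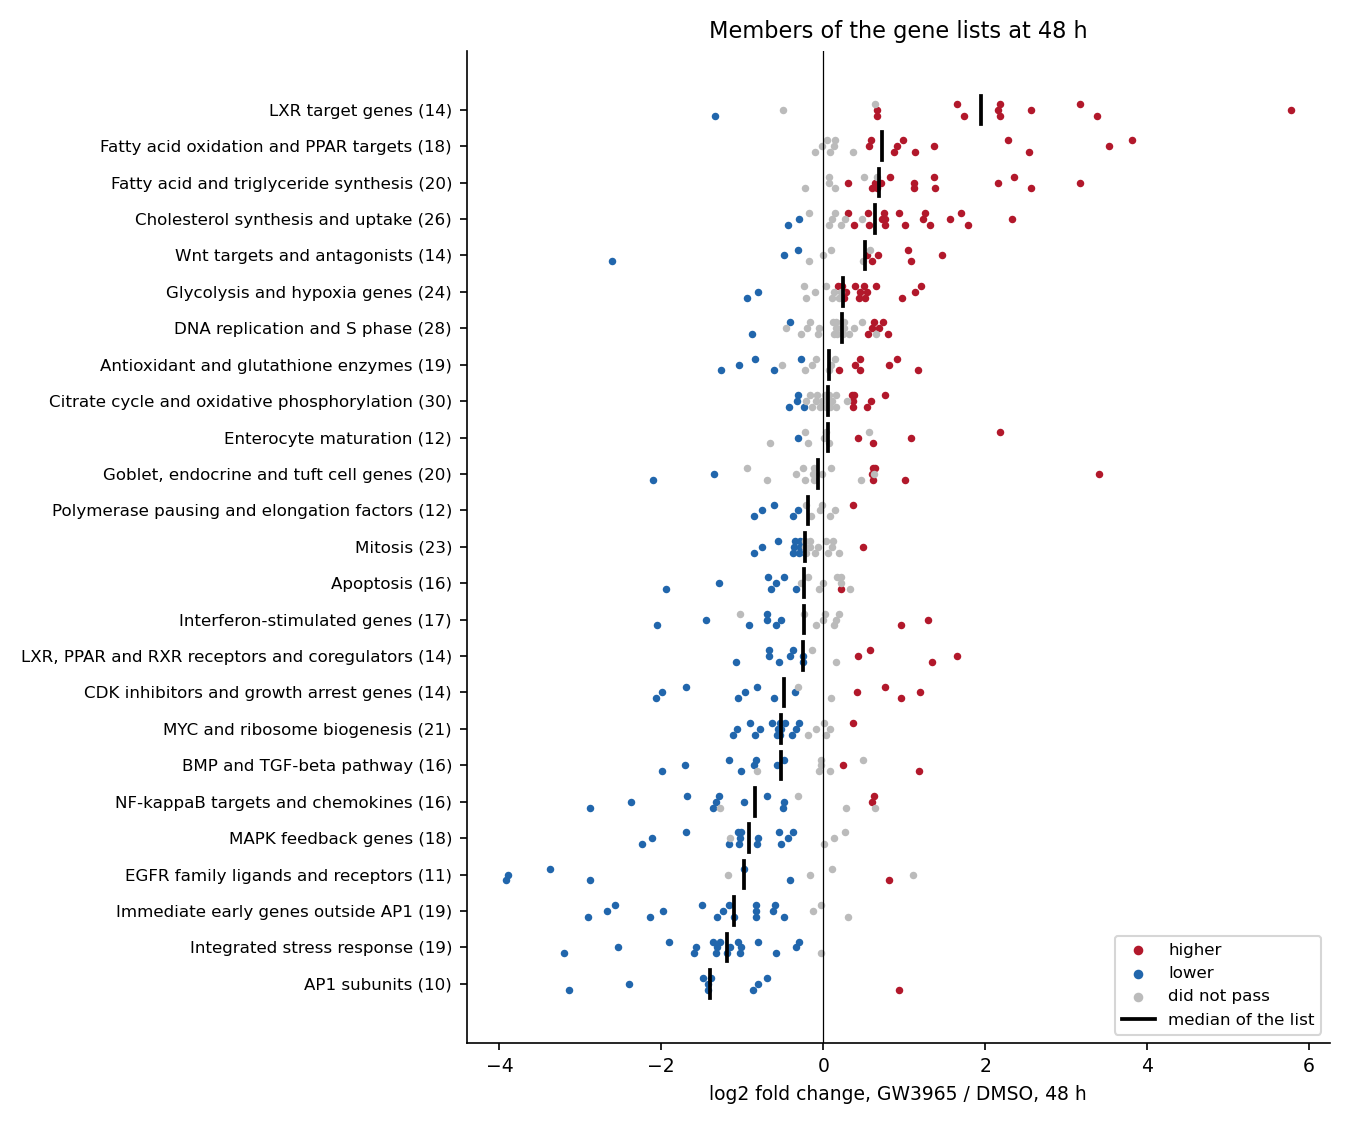
Log2 change, GW3965 over DMSO at 48 h (x axis), of each tested member of 25 gene lists (y axis, number tested in parentheses), red where higher and blue where lower at an adjusted p under 0.01, grey otherwise, with a black bar at the list's median. LXR targets and lipid genes lie to the right, with medians from 0.65 to 1.95, and AP1, stress response, immediate early and EGF receptor genes to the left, with medians from -1.40 to -0.98.

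The 24 h libraries, which share none with the 48 h comparison, show how far these changes were present earlier. In a fit of all 32 RNA-seq libraries, 426 of 23140 genes (1.84%) passed as higher and 178 (0.769%) as lower with GW3965 at 24 h. Among the 727 increases of 48 h, 131 genes were higher and 3 were lower at 24 h, with a median log2 change of 0.155 at 24 h and 1.35 at 48 h. Of the 569 genes called lower at 48 h that were tested there, 23 were lower and 45 were higher at 24 h, with medians of 0.0596 and -1.31. Of the tested LXR targets 10 were higher at 24 h, of fatty acid synthesis genes 10, of fatty acid oxidation genes 9 and of cholesterol synthesis genes 5. None of these lists had a lower member at 24 h in edgeR or at an unadjusted p under 0.05, and DESeq2 was not run on that comparison. Of the stress response list 15 members were higher at 24 h, with a median of 0.82, and none was lower by either measure. AP1 subunits had 1 member higher and 1 lower at 24 h, and MAPK feedback genes 2 lower. None of the latter was higher, against 4 at an unadjusted p under 0.05.

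**Figure D4:**
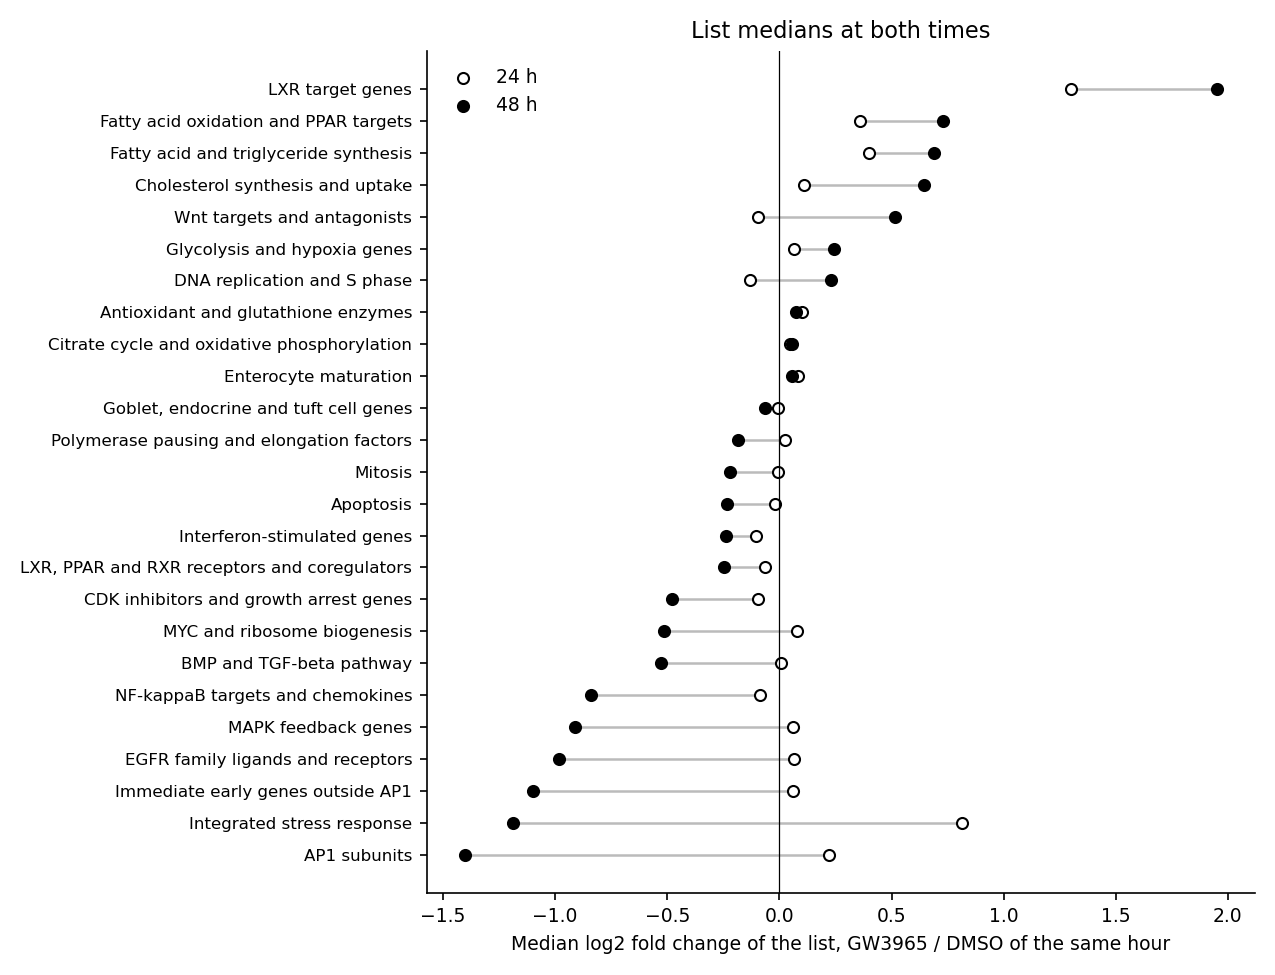
Median log2 change of each gene list (x axis), GW3965 over the DMSO libraries of the same hour, at 24 h (open circles) and 48 h (filled circles). The stress response list stands at 0.82 at 24 h and -1.19 at 48 h, and LXR targets at 1.30 and 1.95.

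The difference between the responses, tested as an interaction over the 32 libraries, passed for 5006 of 23140 genes (21.6%). DMSO levels themselves differed between the times for 8934 genes (38.6%), and since each time was its own set of libraries, time and the preparation of the libraries cannot be told apart. Of the 569 genes called lower with a 24 h value, 482 had higher DMSO levels at 48 h and 0 lower, with a median difference of 1.6. Of the 727 genes called higher, 31 had higher and 319 lower DMSO levels at 48 h, with a median of -0.652. Over all 23140 genes, 4556 were higher and 4378 lower. Both tests share the 48 h DMSO libraries with the 48 h comparison, which alone moves these counts in such directions. Levels in all 4 groups are therefore given side by side (mean ± SD, n = 4, scaled over 32 libraries). AREG stood at 21.1 ± 1.27 CPM with DMSO and 21.2 ± 2.03 CPM with GW3965 at 24 h, and 253 ± 14.4 and 16.7 ± 2.85 CPM at 48 h. ERRFI1 stood at 59.3 ± 3.25 CPM with DMSO and 76.2 ± 5.92 CPM with GW3965 at 24 h, and 880.2 ± 57.5 and 95.2 ± 9.82 CPM at 48 h. EGR1 stood at 51.8 ± 5.64 CPM with DMSO and 78.6 ± 18 CPM with GW3965 at 24 h, and 1024 ± 141 and 137 ± 22.2 CPM at 48 h. In these genes the 48 h DMSO libraries were the highest of the groups. For AREG the GW3965 change was 0.01 ± 0.11 (adjusted p = 0.988) at 24 h, and the difference between the responses was -3.93 ± 0.16 (adjusted p = 1.83e-18). Among the 12 largest decreases, ERRFI1, ATF3, HBEGF, G0S2 and INHBE passed as higher with GW3965 at 24 h. Their changes were 0.36, 1.10, 1.12, 1.15 and 2.56, those of G0S2 and INHBE from levels under 1 CPM with DMSO. ARRDC4, at 0.27, did not pass at 24 h.

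Most stress response genes were thus higher with GW3965 than with DMSO at 24 h and lower at 48 h, and in the 3 genes given first both groups stood higher at 48 h than at 24 h. CHAC1 stood at 4.78 ± 0.551 CPM with DMSO and 27.7 ± 4.09 CPM with GW3965 at 24 h, and 169 ± 11 and 65.7 ± 10.4 CPM at 48 h. ASNS stood at 31.5 ± 1.94 CPM with DMSO and 95.0 ± 4.32 CPM with GW3965 at 24 h, and 385 ± 28.5 and 190.3 ± 24.7 CPM at 48 h. DDIT3 stood at 8.18 ± 0.862 CPM with DMSO and 16.3 ± 2.07 CPM with GW3965 at 24 h, and 117 ± 10.7 and 38.6 ± 6.05 CPM at 48 h. For CHAC1 the change was 2.53 ± 0.12 (adjusted p = 5.73e-17) at 24 h and the difference between the responses was -3.89 ± 0.15 (adjusted p = 9.81e-19), and for ASNS these were 1.59 ± 0.12 (adjusted p = 2.55e-11) and -2.61 ± 0.17 (adjusted p = 2.32e-13). GDF15 stood at 37.4 ± 3.43 CPM with DMSO and 39.0 ± 3.47 CPM with GW3965 at 24 h, and 639 ± 39.4 and 111 ± 18.6 CPM at 48 h, and its change at 24 h was 0.06 ± 0.10 (adjusted p = 0.869). FGF21 had no read in the DMSO libraries of 24 h and 15 reads over the GW3965 libraries. This is at least 4.18-fold higher against a floor of 3 reads over the group, a limit for counting error only, and the list's median at 24 h was 0.82 with FGF21 at this bound too.

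Genes of the lipid response differed between the times in several ways. FASN stood at 3303 ± 327 CPM with DMSO and 9747 ± 2879.7 CPM with GW3965 at 24 h, and 932 ± 92.9 and 8400.0 ± 755 CPM at 48 h, so the DMSO means differed more between the times than the GW3965 means. Its change was 1.56 ± 0.18 (adjusted p = 1.46e-07) at 24 h, with a difference between the responses of 1.61 ± 0.25 (adjusted p = 5.36e-06). ABCG1 stood at 6.97 ± 0.635 CPM with DMSO and 178 ± 12.9 CPM with GW3965 at 24 h, and 23.1 ± 1.39 and 242 ± 16.7 CPM at 48 h, with a difference between the responses of -1.29 ± 0.16 (adjusted p = 1.3e-07), the smaller at 48 h. For SREBF1 the difference was 0.17 ± 0.17 (adjusted p = 0.49) and did not pass.

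**Figure D5:**
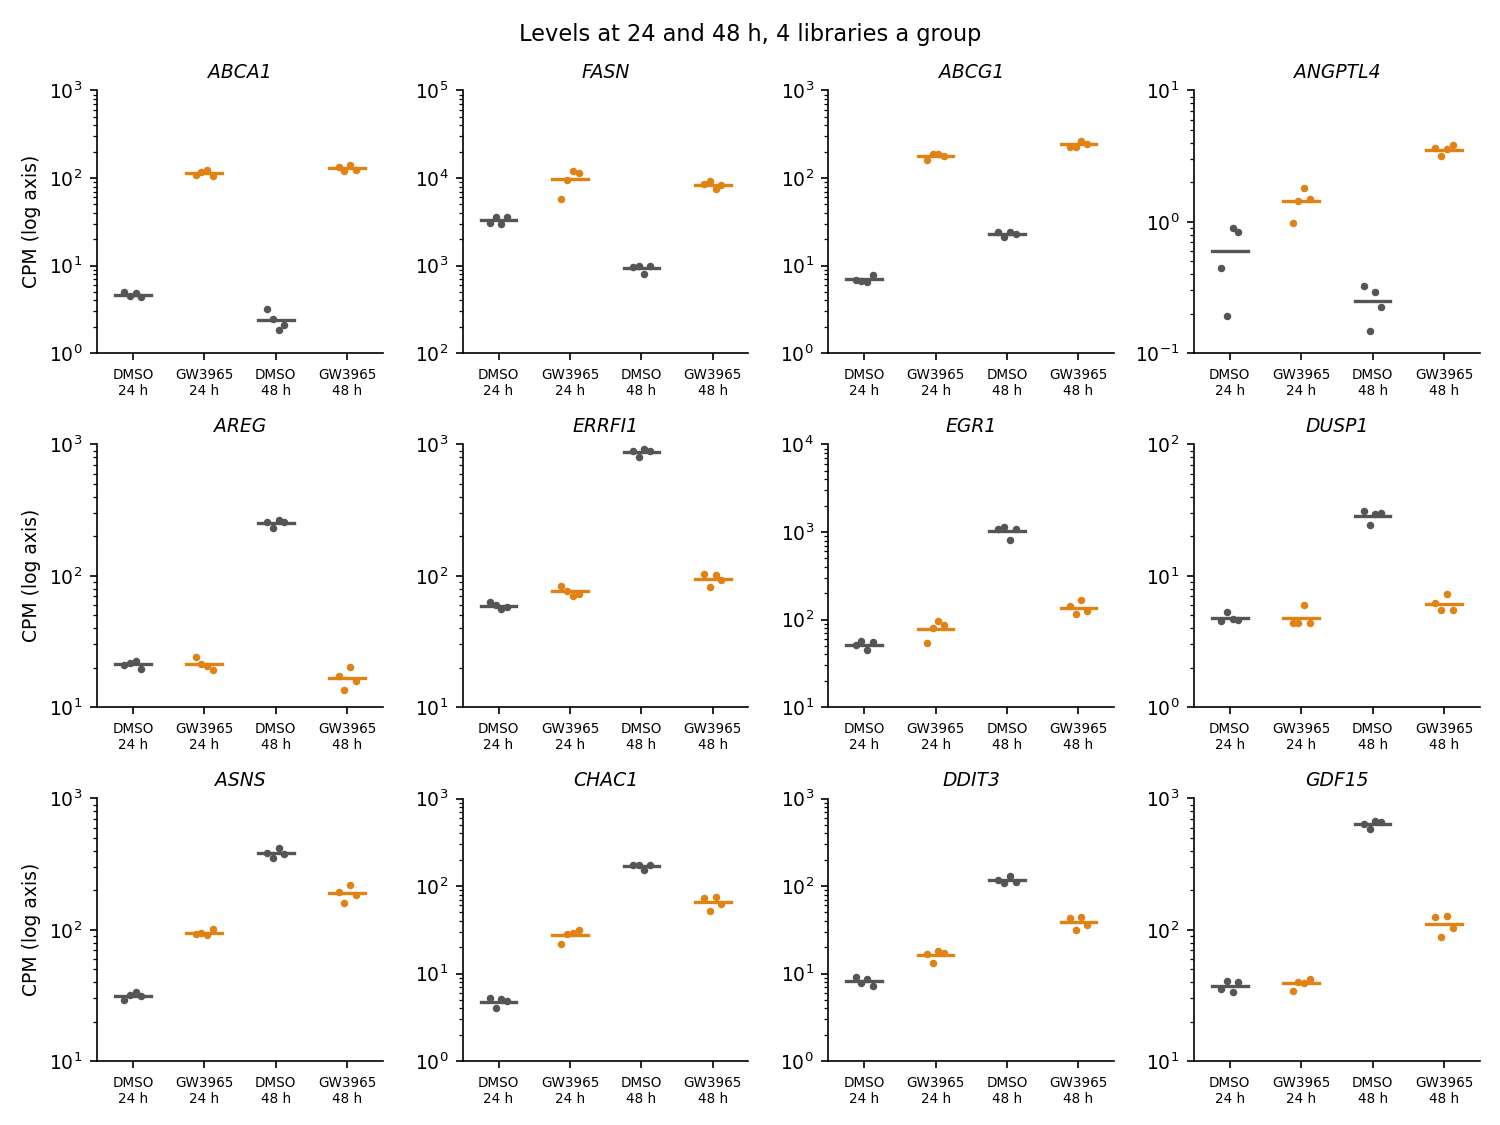
CPM on a log axis in each library, with a bar at the group's mean, for 12 genes in DMSO (grey) and GW3965 (orange) libraries of 24 and 48 h. In the upper row GW3965 libraries stand above DMSO at both times. In the middle and lower rows the DMSO libraries of 48 h are the highest group, for AREG at 253 CPM against 16.7 CPM with GW3965.

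T0901317, an LXR agonist of a different chemical class, was given at the same dose for the same time, and the direct comparison of the drugs at 48 h passed for 1878 genes (8.36%), 1131 higher and 747 lower with GW3965. This number depended on single libraries. It was 962 without T0901317 replicate 2, 1167 without T0901317 replicate 3, 1251 without T0901317 replicate 4, 1164 without GW3965 replicate 1, 1109 without GW3965 replicate 2 and 1107 without GW3965 replicate 3, and DESeq2 gave 2886. Among genes called against DMSO at 48 h, the drugs differed for 114 of the 727 higher and 65 of the 570 lower. A difference that did not pass does not show equal levels. The largest differences towards GW3965 included those of ANGPTL4 and SLC38A4. ANGPTL4 stood at 0.895, 0.272, 0.265 and 1.01 CPM in the T0901317 libraries, below all GW3965 libraries, and the difference between the drugs was 2.5 ± 0.27 (adjusted p = 1.26e-05). SLC38A4 stood at 2.06, 1.48, 1.79 and 1.59 CPM with T0901317, with a difference of 2.39 ± 0.11 (adjusted p = 9.83e-11). Both genes were higher with GW3965 in every library. FCGBP, a mucus protein, and MIR663, a microRNA gene, followed with differences of 1.54 and 1.52.

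In the other direction TNFSF10, which encodes the death ligand TRAIL, stood at 8.65, 9.80, 9.75 and 10.2 CPM with T0901317 and at a mean of 2.75 ± 0.288 CPM with GW3965, a difference of -1.81 ± 0.15 (adjusted p = 4.5e-07). With DMSO TNFSF10 stood at 0.874 ± 0.0897 CPM, so GW3965 raised it too, by 1.65 (adjusted p = 6.02e-07). RARRES3, a retinoid-responsive gene, differed by -1.95 ± 0.13 (adjusted p = 2.82e-08), and UBA7, which activates the ubiquitin-like protein ISG15, by -1.70 ± 0.22 (adjusted p = 6.92e-05). FLYWCH2 and DDX60, an interferon-induced helicase, differed by -1.61 and -1.6. Of the LXR targets, ABCA1 was higher with GW3965 by 0.65 ± 0.10 (adjusted p = 0.000197) and SREBF1 by 0.68 ± 0.10 (adjusted p = 0.000191), while the difference for ABCG1, 0.35 ± 0.12 (adjusted p = 0.0513), and that for SCD, 0.13 ± 0.06 (adjusted p = 0.116), did not pass. The 95% intervals of these differences ran from 0.10 to 0.60 for ABCG1 and from 0.02 to 0.25 for SCD, before adjustment. For AREG the difference, GW3965 over T0901317, was -0.77 ± 0.12 (adjusted p = 0.000322). Both drugs are compared here with each other only, since their separate comparisons with DMSO share the DMSO libraries.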

How the data were processed

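RNA-seq libraries of HT29 cells were made from mRNA with Nextera transposases. The deposited gene counts are whole numbers of reads per Ensembl gene, not normalized, and the authors tested such counts with DESeq. TopHat, Cufflinks and hg19 appear in the submitters' processing notes with no role or version. Not given in the sources used here are the counting program, its annotation, its strand setting and its treatment of reads that fit several genes, so reads of near-identical or overlapping genes may not be separated.

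Groups were taken from the sample labels, and no column of the tables was left unassigned. The count tables were filtered with filterByExpr and scaled with TMM factors. edgeR 4.0.16 (limma 3.58.1, R 4.3.3) fitted its quasi-likelihood model to all 16 libraries of 48 h, or to all 32 libraries for comparisons of times. Each time held 4 libraries each of DMSO, GW3965, T0901317 and rosiglitazone. Genes passed below 0.01 after Benjamini-Hochberg adjustment, and those called also changed at least 2-fold, the limits the study used. CPM are library-size-scaled values computed from the counts with these factors, except the sums over markers, which were scaled by library totals alone. Python 3.11.15, pandas 2.3.3, numpy 2.4.6 and matplotlib 3.10.9 made the tables and plots. The model code was tested on simulated data. Alternatives were DESeq2 1.42.0, other scalings, no filter, a replicate block, other fold limits, and each library left out. ChIP-seq peak lists were not used.

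Genes were named by rule, namely the 12 largest changes in each direction among called genes whose groups did not overlap and whose average log2 CPM was 1 or more, up to 3 changes in each direction per list at an average log2 CPM of at least 0, 11 study genes, and the 5 largest differences in each direction between the agonists. APOC1, APOE, ASNS, ATF4, CHAC1, DDIT3, EGFR, LPCAT3, MYLIP, PHGDH, PLTP, SLC3A2 and TFF1 were named after their values were seen. The 25 gene lists were written from general knowledge, and lists, rules and comparisons were chosen with earlier results of these data known. Promoter sequences are those of RefSeq for GRCh38.p14, matched by symbol, and windows of 300 bases were searched on both strands. Some genes chosen by the rule are not reported here.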

Additional observations from a re-analysis of the deposited data

Results flagged for a closer look

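For 25 of 31 genes named for the size of their change or for the study, the log2 change with GW3965 at 48 h was not that at 24 h, with an adjusted p under 0.01 (edgeR quasi-likelihood test of the interaction over 32 libraries, Benjamini-Hochberg), against 21.6% of all genes. Most of these genes were chosen for the size of their 48 h change in the same libraries, which alone raises that share, so it is a description. FGF21, at 0 in a group of 24 h, was not counted. The differences, 48 h minus 24 h, are values on the log2 scale, and as DMSO levels also differed between the times, time and library set cannot be told apart in them.

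Among genes of lipid metabolism and other increases the differences were 1.16 for ABCA1, 2.59 for ANGPTL4, 1.61 for FASN, 0.56 for SCD, 0.82 for PDK4, 1.38 for POU3F1, 1.04 for SLC38A4 and 0.53 for AL139819.1. SCD and AL139819.1 may hold the same reads. ABCG1, whose response was smaller at 48 h, had -1.29. Among receptors and transcription factors they were 0.55 for NR1H3, -0.36 for NR1H2, -0.97 for PPARG, -0.90 for JUND and -1.09 for MYC.

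Among the largest decreases they were -3.93 for AREG, -3.94 for AREGB, -3.44 for EREG, -4.00 for HBEGF and -3.57 for ERRFI1 in EGF receptor signalling, -4.24 for ATF3 and -3.50 for EGR1 among stress and early response genes, and -4.73 for G0S2, -3.32 for ARRDC4, -5.63 for INHBE and -3.92 for KIAA1239 among the rest. The value of INHBE rests on few reads at 24 h, where its level was 0.098, 0.16, 0 and 0.056 CPM with DMSO and 0.39, 0.38, 0.35 and 0.64 CPM with GW3965. KIAA1239, G0S2 and ANGPTL4 also stood under 1 CPM in the DMSO libraries of 24 h.

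In 2 of 62 groups of 4 libraries 1 library stood apart from the other three. For G0S2 GW3965 replicate 3 stood above the rest, with a gap of 0.837 of the group's range, and for PDK4 GW3965 replicate 2 stood below the rest, with 0.849, both above the 95% critical value of Dixon's test. Chance alone marks about 1 in 20 such groups. The GW3965 level was 2.59, 2.65, 3.46 and 2.49 CPM for G0S2 and 22.8, 19.1, 23.2 and 22.6 CPM for PDK4, and both groups lay apart from the DMSO libraries.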

How the results depend on the processing

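The counts of genes changed at least 2-fold kept their size under most alternatives. For higher and lower genes they were 652 and 641 with library size scaling, 762 and 555 with the factors of DESeq2, 805 and 580 without a filter, 766 and 560 with DESeq2, 757 and 572 with the 8 libraries alone and 526 and 549 in a test against a fold of 1.5. With a cutoff of 1.5-fold they were 1859 and 1749. Leaving out 1 library at a time gave 650 to 746 and 532 to 583, the interaction 4307 to 4966, the DMSO comparison 8015 to 8421, and the comparison with T0901317 962 to 2176. The last gave 2886 genes with DESeq2, and the cause was not tested. Library size scaling moved the share of higher genes among the 2-fold calls from 56.1% to 50.4%, and among all genes that passed from 47.9% to 41.5%.

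With the replicate number as a block the counts were 720 and 567, 3673 and 3923 without a limit on the fold, 1955 against T0901317 and 4901 for the interaction. The labels tie no number to a batch. Deviations of same-numbered DMSO and GW3965 libraries of 48 h correlated at -0.08, 0.05, 0.02 and -0.05, and those of other pairs at -0.108 to 0.133. These values show no sign of pairing by number, but with 4 libraries per group they cannot exclude it. No block could be fitted for DMSO at 48 against 24 h, as numbers lie within a time.

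For the 125 genes chosen by the rule for named genes, none of 1875 values under these alternatives changed sign, and 78 no longer passed, 49 of them in the test against a fold of 1.5. The others belonged to BAX, BOP1, ICAM1, KRT20, SI and ZNRF3. APOC1 is not among the 125. Of 350 list medians 2 changed sign, both of the goblet, endocrine and tuft list, to 0.11 without a filter and to 0.06 without DMSO replicate 3. Genes under about 1 CPM, such as APOC1, are limited by depth, and 1 cell line and replicates of unknown independence limit the rest.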

Other observations

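Of the genes lower at 48 h at least 2-fold, 45 were higher with GW3965 at 24 h, of which 10 were in the stress response list and 32 in none of the lists. The genes described next were chosen after their values were seen.

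GARS, which charges glycine tRNA, had a change of 0.58 ± 0.08 (adjusted p = 6.18e-06) at 24 h and -1.11 ± 0.10 (adjusted p = 2.43e-08) at 48 h, with levels of 142 ± 4.89 CPM with DMSO and 213 ± 13.5 CPM with GW3965 at 24 h, and 698 ± 27.5 and 324 ± 38.2 CPM at 48 h. WARS, which charges tryptophan tRNA, had 0.47 and -1.10. The transporters SLC38A2, SLC1A4 and SLC6A9, which carry small neutral amino acids or glycine, had 0.60, 1.08 and 2.5 at 24 h and -1.15, -1.36 and -1.42 at 48 h.

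TXNIP and ARRDC4, related arrestin family genes known to respond to glucose, were both lower at 48 h. TXNIP had a change of -2.48 ± 0.10 (adjusted p = 9.46e-13), with levels of 88.2 ± 7.14 CPM with DMSO and 95.6 ± 4.10 CPM with GW3965 at 24 h, and 602 ± 24.5 and 108 ± 19.4 CPM at 48 h. ARRDC4 had a change of -3.05 ± 0.12 (adjusted p = 2.71e-13), with levels of 10.4 ± 0.467 CPM with DMSO and 12.6 ± 0.775 CPM with GW3965 at 24 h, and 82.4 ± 5.88 and 9.94 ± 1.46 CPM at 48 h. In both genes the 48 h DMSO libraries were the highest of the 4 groups.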
